A study of Mus musculus with 6 samples.

Results

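The kidney's sodium transporters and the WNK and SGK kinases that regulate them were compared between kidneys of 20-month-old and 2-month-old mice. The set held 10 genes: Slc9a3, Slc12a1, Slc12a3, Scnn1a, Scnn1b, Scnn1g, Wnk1, Wnk4, Stk39 and Sgk1. They were read by every non-control probe designed on a RefSeq transcript of one of these genes. This gave 11 probes of the 55681 on the array, and 10 genes of 20284. Both ages were male C57BL/6 mice, an inbred laboratory strain, for which no treatment is named, with 3 samples at 20 months and 3 at 2 months. Each sample was total RNA of whole kidney on its own single-colour Agilent array. The RNA preparations are described as independent, but whether they stem from different animals is not stated, and the replicate spread behind the p-values may therefore be in part technical.

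Sodium filtered by the glomerulus is taken back along the tubule by a different apical transporter in each segment: the exchanger NHE3 in the proximal tubule, the cotransporter NKCC2 in the thick ascending limb, the cotransporter NCC in the distal convoluted tubule and the channel ENaC in the connecting tubule and collecting duct. WNK kinases sense chloride and potassium and phosphorylate SPAK, which in turn phosphorylates and activates NKCC2 and NCC. SGK1 is induced by aldosterone and other corticosteroids and keeps ENaC at the cell surface by restraining the ubiquitin ligase NEDD4-2. Much of this control acts on phosphorylation and trafficking of the proteins, which an RNA array does not measure.

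No gene of the set passed the test between ages. With limma and Benjamini-Hochberg adjustment over all genes, 0 of the 9 tested genes and 0 of the 10 tested probes had an adjusted p under 0.05, against 3.55% of all tested genes (517 of 14545, with 2.06% higher and 1.49% lower) and 2.15% of all tested probes. At an unadjusted p under 0.05 there were 2 of the 9, Scnn1b and Slc12a3, against 17.1% of all tested genes. The 3 arrays of each age did not overlap for 3 of the 9, against 21.5% of genes: Slc12a3, which was higher at 20 months, and Slc12a1 and Scnn1b, which were lower. The median difference over the 9 genes, 20 minus 2 months, was -0.05 on the log2 scale, beside -0.01 over all tested genes. The median standard error was 0.126, beside 0.136 over all tested genes. The count of 517 over all genes depended on single arrays: it was 937, 164 and 260 without 20-month replicate 1, 2 and 3, and 179, 252 and 290 without 2-month replicate 1, 2 and 3.

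All levels below are log2 signals relative to the 75th percentile of the same array, so a level of 1 lies 1 doubling above that percentile. They compare a probe between arrays, not one probe with another. At 20 months 46.2 to 62.8% of probes were well above background, and at 2 months 55.2 to 72.8%. All 6 arrays lay on 1 slide and were scanned once, with the 20-month arrays in one row of the slide and the 2-month arrays in the other, so row and age cannot be told apart. RNA came from whole kidney, so fewer cells of a type and less RNA per cell cannot be told apart.

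**Figure D1:**
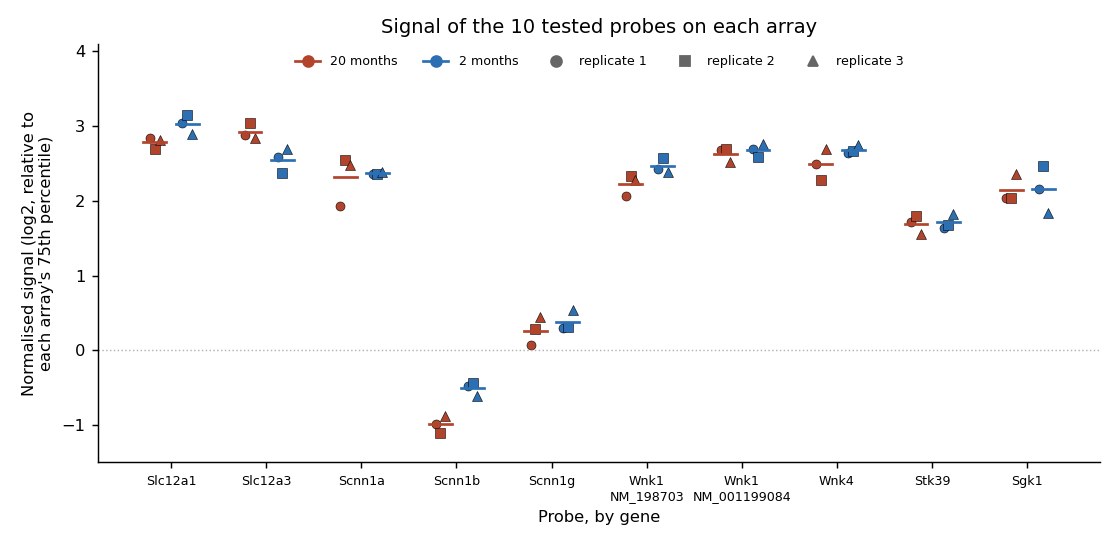
Log2 signal relative to the array's 75th percentile (vertical axis) of the 10 tested probes, with 1 point per array, 20 months left of 2 months, and horizontal bars at the means (n = 3 each). Slc12a3 lies higher at 20 months with no overlap, Slc12a1, Scnn1b and 1 of the Wnk1 probes lie lower with no overlap, and the Slc9a3 probe, which was not above background, is not drawn.

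Slc9a3 encodes NHE3, the sodium-proton exchanger that takes up most proximal sodium. Its only probe gave processed signals of 22.2, 21.7 and 39.1 in 20-month replicates 1, 2 and 3, against 32.5, 25.5 and 19.7 in 2-month replicates 1, 2 and 3. The lowest signal of any probe well above background was 42.6, 93.4 and 110.2 on the same 20-month arrays and 32.6, 36.1 and 63.9 on the 2-month arrays. The Slc9a3 probe was therefore not well above background on any of the 6 arrays, was not tested, and has no fold change. Proximal tubule markers were bright on the same arrays: their summed level was 124 to 153 times the array's 75th percentile at 20 months and 138 to 146 times at 2 months, and 0 of 8 passed the test.

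Slc12a1 encodes NKCC2, the sodium-potassium-chloride cotransporter blocked by loop diuretics. Its level was 2.84, 2.70 and 2.81 in 20-month replicates 1, 2 and 3, against 3.05, 3.15 and 2.90 in 2-month replicates 1, 2 and 3. Every 20-month array lay below every 2-month array, the nearest pair being 20-month replicate 1 and 2-month replicate 3. The difference was -0.25 ± 0.12 (SE), with a 95% interval of -0.51 to 0.02 and an adjusted p of 0.323 (limma).

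Slc12a3 encodes NCC, the sodium-chloride cotransporter blocked by thiazides. Its level was 2.88, 3.04 and 2.84 in 20-month replicates 1, 2 and 3, against 2.59, 2.38 and 2.69 in 2-month replicates 1, 2 and 3. Every 20-month array lay above every 2-month array. The difference was 0.37 ± 0.13 (SE), a 1.29-fold higher signal at 20 months with a 95% interval of 1.06 to 1.58, and the adjusted p was 0.185 (limma). It was the only 1 of the 9 genes with a positive difference.

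The start of the Slc12a3 gene is shown because it alone among the start windows of the 3 genes with non-overlapping groups held one of the motifs searched. The stretch comes from RefSeq on build GRCm38.p6, at chr8:94329164-94329193 on the plus strand, and runs 5′ to 3′ with the TATA box in capitals.
Slc12a3: ctcctcccagccTATAAAgccaccctcagt
The motif TATAAA, searched on both strands, begins 32 bases before the annotated start and occurs in 13.6% of 32851 start windows of 300 bases. The windows of Slc12a1 and Scnn1b did not hold these letters.

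The Slc12a3 level was set against the Slc12a1 level within each array, where the scaling between arrays cancels; the pair was chosen with the sign of both differences known. Slc12a3 minus Slc12a1 was 0.04, 0.34 and 0.03 in 20-month replicates 1, 2 and 3, against -0.46, -0.78 and -0.20 in 2-month replicates 1, 2 and 3. All 3 values at 20 months lay above all 3 at 2 months. That was fixed in advance, because the ages already did not overlap for either gene, in opposite directions. The mean was 0.14 ± 0.18 at 20 months and -0.48 ± 0.29 at 2 months (SD, n = 3 each), a difference of 0.62, or 1.53-fold. The 2-sided exact permutation p was thereby bound to be 0.1, the smallest that 3 against 3 allows, and is given without weight. It was 0.267 after adjustment over the 4 within-array differences computed. The difference lay between 0.468 and 0.755 under every alternative in which it was computed.

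**Figure D2:**
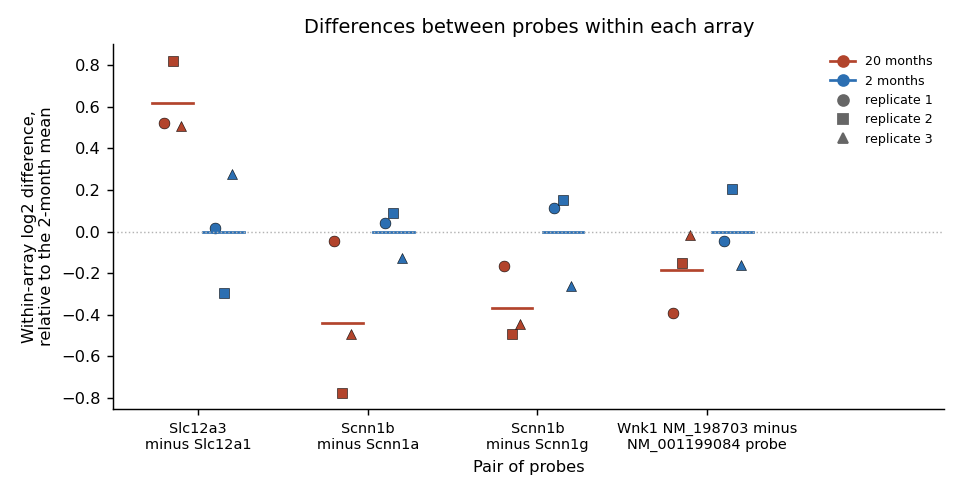
Difference of 2 probes' log2 signals within each array, minus its 2-month mean (vertical axis), for the 4 pairs named on the horizontal axis. There is 1 point per array, 20 months left of 2 months, with bars at the means (n = 3 each). Before that subtraction the means of Slc12a3 minus Slc12a1 were 0.14 at 20 months and -0.48 at 2 months. Only this pair shows no overlap between ages. That follows from the levels of the 2 genes, whose ages did not overlap, in opposite directions.

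Of the 3 ENaC subunits, Scnn1b had non-overlapping ages, and Scnn1a and Scnn1g had overlapping ones. ENaC, the amiloride-sensitive channel, is built from an alpha subunit (Scnn1a), a beta subunit (Scnn1b) and a gamma subunit (Scnn1g). Scnn1b was at -0.99, -1.10 and -0.88 in 20-month replicates 1, 2 and 3, against -0.48, -0.43 and -0.61 in 2-month replicates 1, 2 and 3. Every 20-month array lay below every 2-month array, with a gap of 0.27 between the nearest. The difference was -0.48 ± 0.11 (SE), a signal 0.716 times that at 2 months with a 95% interval of 0.597 to 0.859. It had the smallest p of the set, an unadjusted 0.00282, which ranked 622 among the 14545 genes and gave an adjusted p of 0.0659 (limma).

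Scnn1b passed the threshold under 2 of the alternatives, with an adjusted p of 0.0464 where only probes well above background on all 6 arrays were tested and 0.0258 with array weights (limma). Over all alternatives its difference lay between -0.54 and -0.34 and its adjusted p between 0.0258 and 0.35.

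Scnn1a was at 1.93, 2.55 and 2.48 in 20-month replicates 1, 2 and 3, against 2.36, 2.36 and 2.39 in 2-month replicates 1, 2 and 3. The 2-month arrays lay close together, and the 20-month arrays lay on both sides of them. The difference was -0.04 ± 0.17 (SE), with a 95% interval of -0.43 to 0.35 and an adjusted p of 0.930 (limma). Without 20-month replicate 1, the lowest array, it was 0.15.

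Scnn1g was at 0.07, 0.28 and 0.45 in 20-month replicates 1, 2 and 3, against 0.30, 0.31 and 0.53 in 2-month replicates 1, 2 and 3. The ages overlapped. The difference was -0.11 ± 0.14 (SE), with a 95% interval of -0.43 to 0.20 and an adjusted p of 0.738 (limma). With each array left out in turn it lay between -0.21 without 20-month replicate 3 and -0.01 without 20-month replicate 1.

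Within arrays, Scnn1b minus Scnn1a averaged -3.31 ± 0.37 at 20 months and -2.88 ± 0.11 at 2 months (SD, n = 3 each), a difference of -0.44. Scnn1b minus Scnn1g averaged -1.26 ± 0.18 at 20 months and -0.89 ± 0.23 at 2 months (SD, n = 3 each), a difference of -0.37. The ages overlapped in both, with a 2-sided exact permutation p of 0.2 each and 0.267 after adjustment over the 4 within-array differences. With quantile scaling and with normexp the exact permutation p was 0.1 and 0.8 for Scnn1b minus Scnn1a, and 0.2 and 0.1 for Scnn1b minus Scnn1g. The smallest p this test allows is 0.1, so it cannot decide whether beta differed in response from the other subunits.

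Scnn1g and Scnn1b are neighbours on mouse chromosome 7, with 0 protein-coding genes between them in the RefSeq annotation. Their upstream sequences are shown because these adjacent genes encode subunits of one channel. Both come from RefSeq on build GRCm38.p6, plus strand, and run 5′ to 3′ with each CG dinucleotide, the site of DNA methylation in mammals, in capitals. The Scnn1b stretch is chr7:121864788-121865037, the 250 bases before the annotated start, and the Scnn1g stretch is chr7:121734229-121734419, positions -250 to -60 relative to it.
Scnn1b: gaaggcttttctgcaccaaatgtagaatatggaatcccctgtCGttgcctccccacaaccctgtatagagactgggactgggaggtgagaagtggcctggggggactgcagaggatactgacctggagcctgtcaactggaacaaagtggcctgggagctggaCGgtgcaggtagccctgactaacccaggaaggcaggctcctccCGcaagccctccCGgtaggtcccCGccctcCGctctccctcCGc
Scnn1g: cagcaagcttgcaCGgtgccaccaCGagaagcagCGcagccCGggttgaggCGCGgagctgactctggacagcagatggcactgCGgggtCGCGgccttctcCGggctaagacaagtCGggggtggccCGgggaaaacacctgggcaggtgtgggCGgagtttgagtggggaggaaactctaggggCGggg
In the full windows of 300 bases, Scnn1b held 10 CG dinucleotides and Scnn1g 18, beside a median of 7 over 32851 start windows. The share of G and C was 61.7% for Scnn1b, 64.7% for Scnn1g and 52.7% at the median. No methylation was measured in these samples.

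The kinases had no difference past the test in either direction. Wnk4, a WNK kinase of the distal nephron, was at 2.49, 2.28 and 2.69 in 20-month replicates 1, 2 and 3, against 2.65, 2.66 and 2.75 in 2-month replicates 1, 2 and 3. Only 20-month replicate 3 reached the range of the 2-month arrays. The difference was -0.20 ± 0.13 (SE), with a 95% interval of -0.50 to 0.11 and an adjusted p of 0.505 (limma). It was -0.09 without 20-month replicate 2 and -0.30 without 20-month replicate 3.

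Stk39 encodes SPAK, the kinase between the WNKs and the cotransporters. Its level was 1.71, 1.80 and 1.56 in 20-month replicates 1, 2 and 3, against 1.64, 1.68 and 1.83 in 2-month replicates 1, 2 and 3. The ages overlapped, with replicate 3 the lowest array at 20 months and the highest at 2 months. The difference was -0.03 ± 0.12 (SE), with a 95% interval of -0.29 to 0.24 and an adjusted p of 0.941 (limma), and its sign turned under median centring and array weights.

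Wnk1 was read by 2 probes, designed on the transcripts NM_001199084 and NM_198703. Wnk1 gives a full-length kinase and, in the kidney, a shorter form without kinase activity; which forms each probe reads was not analysed here. The NM_001199084 probe, which was the brighter and stands for the gene, was at 2.68, 2.70 and 2.51 in 20-month replicates 1, 2 and 3, against 2.69, 2.59 and 2.77 in 2-month replicates 1, 2 and 3. The ages overlapped, and the difference was -0.05 ± 0.11 (SE), with a 95% interval of -0.31 to 0.21 and an adjusted p of 0.870 in the fit over genes (limma).

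The NM_198703 probe of Wnk1 was at 2.07, 2.33 and 2.28 in 20-month replicates 1, 2 and 3, against 2.42, 2.58 and 2.39 in 2-month replicates 1, 2 and 3. Every 20-month array lay below every 2-month array, by as little as 0.06 for the nearest pair. The difference was -0.24 ± 0.13 (SE), with a 95% interval of -0.53 to 0.06 and an adjusted p of 0.408 in the fit over probes (limma). Within arrays, the NM_198703 minus the NM_001199084 probe averaged -0.41 ± 0.19 at 20 months and -0.22 ± 0.19 at 2 months (SD, n = 3 each). The ages overlapped, the difference was -0.19 and the 2-sided exact permutation p was 0.5. As the smallest p this test allows is 0.1, it cannot decide whether the probes differ in their change with age.

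Sgk1, the corticosteroid-induced kinase, was at 2.04, 2.04 and 2.36 in 20-month replicates 1, 2 and 3, against 2.17, 2.47 and 1.83 in 2-month replicates 1, 2 and 3. The 2-month arrays held both the highest and the lowest level. The difference was -0.01 ± 0.18 (SE), with a 95% interval of -0.42 to 0.40 and an adjusted p of 0.985 (limma), and its sign turned under median centring. The standard error was the widest of the 9 genes. The interval leaves room for a signal between 0.745 and 1.32 times that at 2 months.

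Sgk1 has 6 start windows in the RefSeq table, and the upstream end of 1 of them is shown because it holds the full corticosteroid receptor element. The stretch is chr10:21993640-21993759 on the plus strand of build GRCm38.p6, positions -250 to -131 relative to that start, 5′ to 3′. The capitals mark the E-box CACGTG and, at chr10:21993701-21993715, the element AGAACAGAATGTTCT.
Sgk1: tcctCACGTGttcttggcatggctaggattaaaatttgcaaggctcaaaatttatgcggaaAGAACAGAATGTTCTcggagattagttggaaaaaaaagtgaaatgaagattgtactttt
The pattern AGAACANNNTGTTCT, searched on both strands, was present in 3 of 32851 start windows, or 0.00913%. The E-box CACGTG, which is the same on both strands, was present in 7.15%, and the single hexamer AGAACA in 19.0%. The Sgk1 window holds 3 matches of that hexamer, of which 2 are the arms of the full element and 1 overlaps the E-box. Of the 14 windows found for 9 of the genes, 1 held the full element. The remaining motif searched on both strands, the HNF1 arm GTTAAT, was present in 7.1% of all windows and in 0 of these 14. A match of letters is a description of the sequence and not a binding site.

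**Figure D3:**
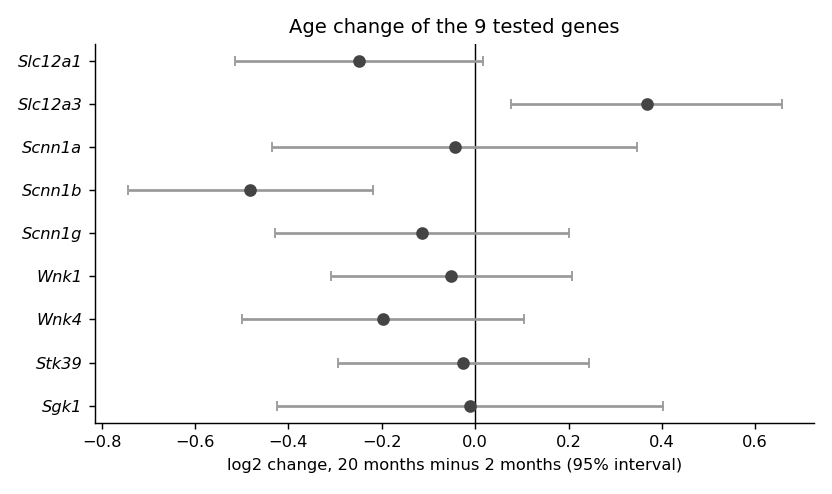
Log2 difference, 20 minus 2 months (horizontal axis), with its 95% interval from limma for the 9 tested genes (vertical axis). The intervals of Scnn1b and Slc12a3 leave out 0 before adjustment, and no gene had an adjusted p under 0.05.

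Of the 9 tested genes, 8 had a negative difference and 1 a positive one, beside 52.9% negative over all tested genes, though the sign of Stk39, Sgk1, Scnn1g, Wnk1 and Scnn1a turned under at least 1 alternative. Slc12a1, Slc12a3, Scnn1b and Wnk4 kept their sign under every alternative run. Each of the 3 slide columns held 1 array of each age, and where the groups do not overlap the sign within columns is fixed by that. The difference within columns 1, 2 and 3 was 0.29, 0.67 and 0.15 for Slc12a3, and -0.21, -0.45 and -0.08 for Slc12a1. For Scnn1b it was -0.51, -0.67 and -0.27. Scnn1g and Wnk4, whose ages overlapped, were also lower in each column, by differences of -0.23, -0.03 and -0.08 for Scnn1g and -0.15, -0.38 and -0.06 for Wnk4.

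Other genes of these pathways were read from 5 lists with 64 genes, of which 57 were tested. Over the 5 lists, 0 rose and 1 fell (1.75% called, beside 3.55% of all tested genes), and the median difference was -0.01. The 1 gene that fell was St14. Most genes named below were those with the smallest p of their list. Of all tested genes 21.5% had ages that did not overlap, so separation in a picked gene says nothing about its list.

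The list of the aldosterone and SGK pathway and of ENaC processing held 15 genes, of which 14 were tested; 0 rose, 1 fell, and the median difference was -0.00. St14 encodes matriptase, a membrane serine protease that can cleave and activate ENaC. It was at 0.31, 0.03 and 0.08 in 20-month replicates 1, 2 and 3, against 0.85, 0.90 and 0.73 in 2-month replicates 1, 2 and 3. The groups did not overlap, and St14 fell by 0.69 ± 0.12 (SE) on the log2 scale, to a signal 0.621 times that at 2 months, with an adjusted p of 0.0241 (limma). The call was lost without 20-month replicate 2 or 3 or without any 1 of the 2-month arrays, with adjusted p-values from 0.0515 to 0.101 (limma), and 3 other alternatives also ended it.

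Hsd11b2 encodes the enzyme that inactivates corticosterone and so leaves the mineralocorticoid receptor to aldosterone. It was at -1.84, -1.79 and -1.44 in 20-month replicates 1, 2 and 3, against -1.08, -1.15 and -1.41 in 2-month replicates 1, 2 and 3. The groups did not overlap, and the difference was -0.48 ± 0.15 (SE) with an adjusted p of 0.151 (limma). Usp2, a deubiquitinase that acts on ENaC, differed by 0.32 with an adjusted p of 0.358. Nr3c2, the mineralocorticoid receptor, was above background on 2 arrays at 20 months and 2 at 2 months and was not tested.

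The list of WNK-SPAK partners and of the basolateral chloride and potassium channels that set the signal held 14 genes, of which 12 were tested. In it 0 rose and 0 fell, and the median difference was -0.07. The smallest p-values belonged to Wnk2, a further WNK kinase, at -0.41 with an adjusted p of 0.144 (limma), and to Slc12a2, the basolateral sodium-potassium-chloride cotransporter NKCC1, at -0.31 with an adjusted p of 0.220. Kcnj10, the basolateral potassium channel of the distal convoluted tubule, followed at -0.22 with an adjusted p of 0.332. Their ages did not overlap and all were lower at 20 months. Oxsr1, which encodes OSR1, the close relative of SPAK, differed by 0.04 ± 0.14 (SE), and Cul3, the scaffold of the ligase that degrades WNK kinases, by 0.13 ± 0.13 (SE).

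Of the 9 genes listed as NHE3 partners and other sodium-proton exchangers, all were tested, 0 rose and 0 fell, and the median difference was -0.01. The sodium-proton exchanger Slc9a4 was at -4.84, -4.00 and -3.68 in 20-month replicates 1, 2 and 3, against -3.05, -3.19 and -3.54 in 2-month replicates 1, 2 and 3. The groups did not overlap, and the difference was -0.91 ± 0.28 (SE) with an adjusted p of 0.144 (limma). Without 20-month replicate 1, the lowest array, it was -0.58. The other 2 named by the smallest p were Slc9a8 at -0.21 and Slc9a2 at -0.16, both with overlapping ages.

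The sodium pump and FXYD list held 12 genes, of which 10 were tested; 0 rose, 0 fell, and the median difference was 0.02. Fxyd5, a pump regulator, was at 1.73, 1.67 and 2.08 in 20-month replicates 1, 2 and 3, against 1.23, 1.28 and 1.54 in 2-month replicates 1, 2 and 3, with no overlap. Its difference was 0.47 ± 0.15 (SE) with an adjusted p of 0.152 (limma). Fxyd4, the pump regulator of the collecting duct, differed by -0.19 with an adjusted p of 0.508.

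The list of other sodium cotransporters held 14 genes, of which 12 were tested; 0 rose, 0 fell, and the median difference was -0.01. Slc5a1, the sodium-glucose cotransporter SGLT1 of the late proximal tubule, was at -0.03, -0.27 and -0.28 in 20-month replicates 1, 2 and 3, against 0.33, 0.49 and 0.20 in 2-month replicates 1, 2 and 3. The groups did not overlap, and the difference was -0.54 ± 0.13 (SE) with an adjusted p of 0.0667 (limma), which passed the threshold under 5 alternatives. Slc4a8, a sodium-driven chloride-bicarbonate exchanger, differed by -0.52 with an adjusted p of 0.134, and Slc34a3, a proximal sodium-phosphate cotransporter, by -0.26 with an adjusted p of 0.420. In both the groups did not overlap.

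**Figure D4:**
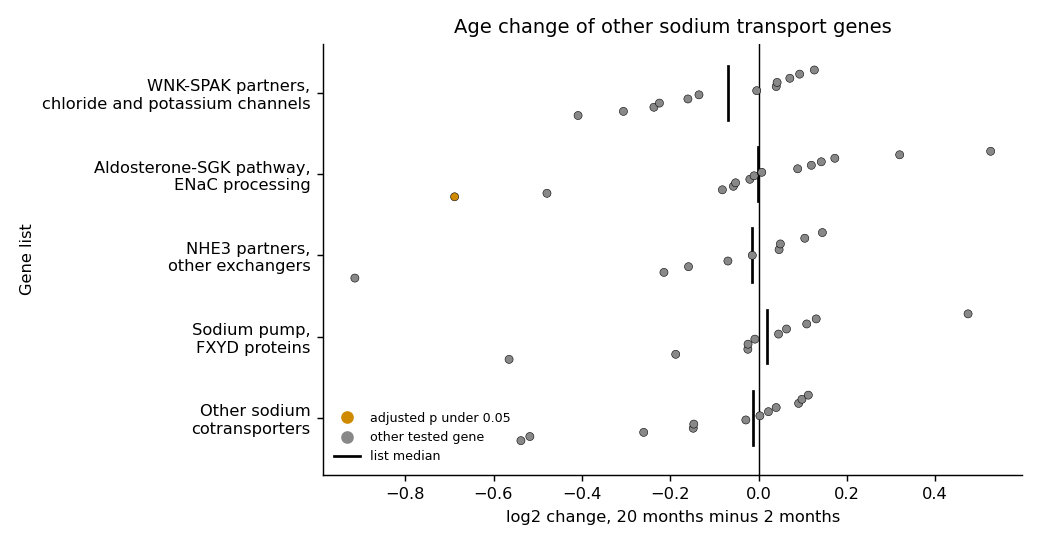
Log2 difference, 20 minus 2 months (horizontal axis), of the tested genes of the 5 pathway lists (vertical axis), with 1 point per gene and a line at each list's median. The medians lie between -0.07 and 0.02, and St14 at -0.69 is the 1 gene past an adjusted p of 0.05.

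Markers of the segments that hold these transporters were read beside them. The 7 thick ascending limb markers had a summed level of 70.3 to 78.4 times the array's 75th percentile at 20 months. At 2 months it was 78.9 to 82.0 times. The ages did not overlap, but only narrowly, with 20-month replicate 3 at 78.4 and 2-month replicate 1 at 78.9. None of the 7 passed the test, all 7 differences were negative, and their median was -0.14, beside -0.25 for Slc12a1 of the same segment. The lean was not particular to that segment: all 6 intercalated cell markers were also negative, with a median of -0.21. Of the thick ascending limb markers, Cldn16, a claudin for magnesium and calcium, differed by -0.36, Cldn19, its partner, by -0.33, and Umod, uromodulin, by -0.21. The part of these markers in the Slc12a1 difference was not tested.

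For Slc12a3, the 5 markers of the distal convoluted tubule had an overlapping summed level of 12.2 to 17.3 at 20 months and 12.1 to 16.5 at 2 months. None of the 4 tested passed the test, 3 of 4 differences were above 0, and the median was 0.14. Trpm6, the magnesium channel of that segment, differed by 0.33 and Pvalb, parvalbumin, by 0.27, both with overlapping ages. The third above 0, Sgms2, differed by only 0.005 ± 0.14 (SE). The calcium-binding protein gene Calb1 ran the other way, at 1.01, 1.62 and 1.36 in 20-month replicates 1, 2 and 3, against 2.15, 2.06 and 1.89 in 2-month replicates 1, 2 and 3, with a difference of -0.70 and an adjusted p of 0.0678 (limma). The part of segment markers in the Slc12a3 difference was not tested.

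For the ENaC subunits, the 7 principal cell markers had an overlapping summed level of 22.0 to 28.4 at 20 months and 26.1 to 30.2 at 2 months, and the median difference was -0.20, or -0.19 without Elf5. The transcription factor gene Elf5 entered the test only through its 2-month arrays: it was well above background on 1 array at 20 months and 3 at 2 months, so its adjusted p of 0.0362 (limma) is given without weight. Avpr2, the vasopressin receptor, differed by -0.45 and the water channel gene Aqp3 by -0.32, both lower without overlap, whereas the water channel gene Aqp4 differed by 0.78. None of these 3 passed the test. The part of principal cell markers in the Scnn1b difference was not tested.

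**Figure D5:**
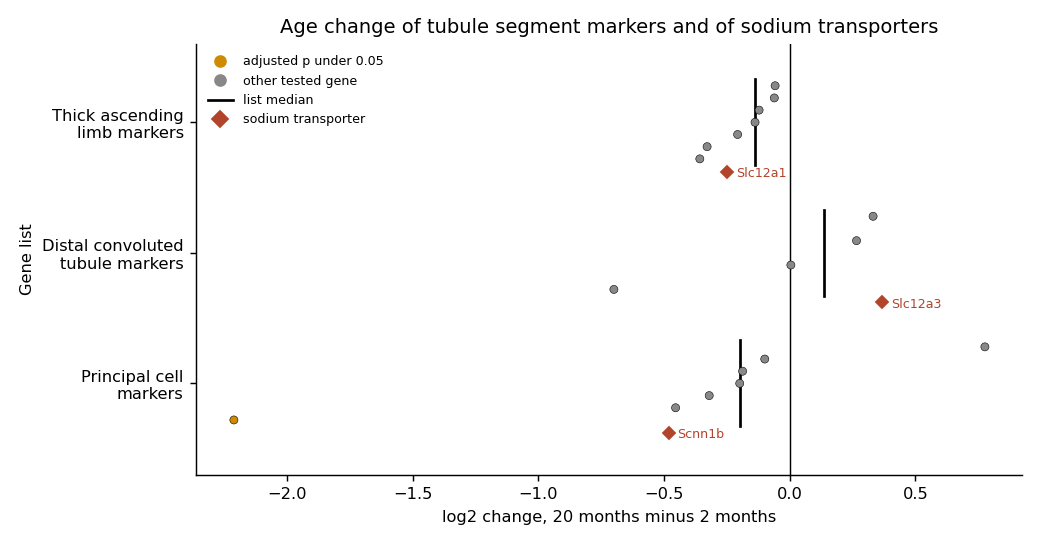
Log2 difference, 20 minus 2 months (horizontal axis), of marker genes of 3 tubule segments (vertical axis), with a line at each list's median. A diamond marks 1 sodium transporter per segment: Slc12a1, Slc12a3 or Scnn1b. The other ENaC subunits, Scnn1a at -0.04 and Scnn1g at -0.11, are not drawn. Slc12a1 and Scnn1b lie on the negative side with most markers of their segments. Slc12a3 lies on the positive side, where 3 of 4 markers lie, 1 of them (Sgms2) at 0.005, while Calb1 lies at -0.70. The coloured point at -2.21 is Elf5, which entered the test only through its 2-month arrays.

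Markers of other cell types were read on the same arrays. The summed level of 8 tested leukocyte markers was 18.7 to 21.0 at 20 months and 9.84 to 11.97 at 2 months, with 3 of 8 risen. Most of that gap in the sum was Jchain, the immunoglobulin joining chain of plasma cells. Without it the sums overlapped, at 11.1 to 12.8 at 20 months and 9.49 to 11.4 at 2 months. Such sums weigh bright probes most, and Csf1r, the brightest one left, differed by only 0.07. The rise was not in Jchain alone: Ms4a1 at 1.35 and Itgax at 0.99 were the others past the test. All 8 differences were above 0, with a median of 0.78, against 47.1% above 0 over all tested genes. The 5 adipocyte markers summed to 22.9 to 25.1 at 20 months and 14.3 to 21.9 at 2 months, with 0 of the 4 tested past the test. Intercalated cell markers summed to 20.6 to 22.4 at 20 months and 23.2 to 24.9 at 2 months, with 0 of 6 past the test. Fibroblast and smooth muscle markers summed to 24.5 to 27.8 at 20 months and 28.6 to 29.5 at 2 months, with 1 of 6 fallen. That 1 was the collagen gene Col1a1, without which the sums overlapped, at 20.8 to 24.0 at 20 months and 22.1 to 23.5 at 2 months. The part of these cell types in the differences above was not tested.

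The genes whose array values were most like those of Scnn1b were found by the root mean square distance over the 6 arrays, each gene centred on its own mean, among 13846 genes. They were Pde4c, a cyclic AMP phosphodiesterase, at a distance of 0.045, Itga6, an integrin subunit, at 0.055, Nsrp1, a splicing regulator, at 0.060, Rasl12, a small GTPase, at 0.063, and Inava, an adaptor of innate immune signalling, at 0.064. Scnn1b's own values spread by 0.255 on the same measure. Their own differences, which the choice by distance fixes to lie near that of Scnn1b, ran from -0.50 for Pde4c to -0.41 for Inava.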

How the data were processed

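Total RNA of whole kidney was extracted with Trizol and its cDNA was Cy3-labelled by random priming with Klenow enzyme, per the labels' protocols. Per the file headers, spot intensity was read with Agilent Feature Extraction 11.5.1.1 on array design 028005 and deposited as a background-corrected processed signal without scaling between arrays. The authors' deposited log2 table was compared with values computed here from the scanner files with outlier spots kept, unlike the values analysed. It differed from them by a median of 0.00497 to 0.00899 per array and by at most 0.517 to 1.55 at single probes.

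Control and outlier spots were left out, log2 values of repeated spots were averaged, and each array's 75th percentile was subtracted. Array depth has no counts, so the number of arrays limits the precision. The 75th percentile of signal was 2412 to 4092 at 20 months and 2591 to 3953 at 2 months, and 0 probes were saturated. A probe entered the test if every array of 1 age or the other showed it well above background, which held for 30801 of 55681. Symbols came from RefSeq transcript identifiers: 26762 probes had 1 symbol, 28919 had none and 0 had several. A gene stood for its probe with the highest mean, and 14545 of 20284 genes were tested. The procedure was tested on simulated data. Ages were compared with limma 3.58.1 in R 4.3.3 (lmFit and eBayes, 2-sided, Benjamini-Hochberg over all features, threshold 0.05). Within-array differences were compared with an exact permutation test. Figures were drawn with matplotlib 3.10.9 in Python 3.11.15.

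The genes and lists were chosen with earlier results of these data known. Named were all 10 genes of the set, in each pathway list the genes past the threshold and the 3 with the smallest p, and the 5 genes nearest to the one with the smallest p. One gene that this rule names is not reported here. Segment markers, Oxsr1, Cul3 and Nr3c2 were named after their values were seen, as were 3 of the 4 within-array differences chosen. The alternatives changed the scaling (quantile, median centring), the source (the authors' table), the background (normexp with an offset of 50, then quantile), the filter (none, or all 6 arrays), outlier spots (kept) and probes (averaged per gene). They also changed the fit (trend and robust, array weights, a replicate block) and left out each array in turn. The files hold no mean spot signal, so normexp used the median signal.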

Additional observations from a re-analysis of the deposited data

How the results depend on the processing

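Over the alternatives, Slc12a3, Slc12a1, Scnn1b and Wnk4 kept their sign. Slc12a3 minus Slc12a1, which was not computed with trend and robust or with array weights, kept its direction under the others. The count of 517 genes over the whole array was 801 with median centring, 16 with no filter, 867 with array weights, 299 with the replicate block, and 164 to 937 with each array left out in turn; under the other alternatives it was within 1.5 times. The count of 0 genes of the set became 1, Scnn1b, with the filter on all 6 arrays and with array weights, and the count of 0 probes became 1 with array weights. The count of 1 pathway gene became 2 with normexp, 2 with the filter on all 6 arrays, 2 with trend and robust, 4 with array weights, 0 with no filter, 0 with the replicate block, and 0 to 2 with each array left out. St14 lost its call with median centring (adjusted p = 0.0537, limma), no filter (0.141) and the replicate block (0.0572). Slc5a1 passed with normexp (adjusted p = 0.0476, limma), the filter on all 6 arrays (0.0429), trend and robust (0.0334), array weights (0.0292) and without 20-month replicate 1 (0.0401). Slc9a4 passed with median centring (0.0263), and Hsd11b2 (0.0484) and Slc4a8 (0.0427) with array weights. Sign turned for Stk39 (0.017 with median centring, 0.040 with array weights, and -0.078 to 0.039 with each array left out, above 0 without replicate 3 of either age) and for Sgk1 (0.032 with median centring, and -0.17 to 0.15 with each array left out, above 0 without 20-month replicate 1 or 2 or 2-month replicate 2). It also turned for Scnn1g (0.058 with normexp), for Wnk1 (0.037 with normexp, and -0.098 to 0.0072 with each array left out, above 0 without 20-month replicate 3) and for Scnn1a (0.038 with array weights, and -0.16 to 0.15 with each array left out, above 0 without 20-month replicate 1). Leaving out 1 array moved some differences that passed no test by over 1.5 times: Usp2 was 0.18 without 20-month replicate 3, Slc34a3 was -0.11 and Slc9a2 -0.10 without 20-month replicate 1, Slc9a8 was -0.13 without 20-month replicate 2 and -0.14 without 2-month replicate 2, and Fxyd4 was -0.10 without 2-month replicate 1. The cause of these shifts was not tested.

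Replicate numbers, which are also slide columns, were tried as a pairing. Deviations of same-numbered arrays from their age means correlated at 0.062, -0.091 and 0.10 across genes, which is not above 0.1 for every pair, and not every array correlated best with its own number, so the numbers were not taken as pairs. With the replicate block Scnn1b and Slc12a3 stayed on the same side of the threshold.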

Other observations

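Sgk1 was highest on 20-month replicate 3 and on 2-month replicate 2. The same 2 arrays were the highest of their age for 4 of 14 tested genes of the aldosterone and SGK list (28.6%), against 14.8% of all tested genes (2150 of 14507). These were Per1, a clock gene that aldosterone induces, Tsc22d3, which encodes the corticosteroid-induced protein GILZ, Usp2 and Furin. For Furin the margin was small, at 3.74 in 2-month replicate 2 against 3.72 in 2-month replicate 3. Of the 9 tested genes of the set, 2 held the pattern (22.2%), Sgk1 itself and Scnn1b. Per1 was at 1.40, 1.41 and 2.04 in 20-month replicates 1, 2 and 3, against 1.03, 1.67 and 0.57 in 2-month replicates 1, 2 and 3. Tsc22d3 was at 1.97, 2.01 and 2.39 in 20-month replicates 1, 2 and 3, against 1.68, 2.47 and 1.86 in 2-month replicates 1, 2 and 3. Fkbp5, another corticosteroid-induced gene, shared the pattern at 2 months but not at 20 months. It was at 2.77, 3.00 and 2.60 in 20-month replicates 1, 2 and 3, against 2.65, 2.99 and 2.89 in 2-month replicates 1, 2 and 3. The arrays were picked out after the Sgk1 values were seen, so these are values without a test.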
